A study of Mus musculus with 11 samples.

Results

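The 10 genes described here carry glucose into the cell and through glycolysis, and were chosen by name from the 19058 genes of the deposited expression table. They are the glucose carrier *Slc2a1*, the hexokinases *Hk1*, *Hk2* and *Hk3*, the phosphofructokinases *Pfkl* and *Pfkp*, the lower glycolytic enzymes *Aldoa*, *Pgk1* and *Pkm*, and the lactate dehydrogenase subunit *Ldha*. RNA of whole lacrimal glands of male nonobese diabetic (NOD) mice was sequenced from 3 WT, 5 *Tlr7* KO and 3 *Ifnar1* KO animals, with 1 library per mouse. NOD is an inbred strain in which males develop inflammation of the lacrimal gland without treatment. All groups share the NOD background and the male sex. The *Tlr7* KO line carries a CRISPR/Cas9 deletion of 2 bases in *Tlr7*, and *Ifnar1* KO mice lack a chain of the type I interferon receptor. WT and *Tlr7* KO mice were 20 to 22 weeks old, and an age for the *Ifnar1* KO mice is not given in the sources used here. The study left out an *Ifnar1* KO animal that had inflammation like WT, so the 3 *Ifnar1* KO mice were chosen with the inflammation known.

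Glycolysis splits glucose into pyruvate in the cytosol. Facilitative carriers bring glucose in, hexokinase traps it as glucose 6-phosphate, and phosphofructokinase makes the committed step. Aldolase, phosphoglycerate kinase and pyruvate kinase act further down, and lactate dehydrogenase turns pyruvate into lactate. Activated lymphocytes and macrophages raise glucose uptake and lactate production, while the secretory epithelium of a gland relies largely on mitochondrial ATP. The hypoxia-inducible factor HIF-1 activates many of these genes through the core motif ACGTG or GCGTG.

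In GRCm38 (GENCODE annotation) the genes lie at chr4:119108711-119137983 (plus strand) for *Slc2a1*, chr10:62268855-62379908 (minus strand) for *Hk1*, chr6:82725025-82774454 (minus strand) for *Hk2*, chr13:55005985-55021385 (minus strand) for *Hk3*, chr10:77986947-78010083 (minus strand) for *Pfkl*. The others lie at chr13:6579768-6648777 (minus strand) for *Pfkp*, chr7:126795234-126800751 (minus strand) for *Aldoa*, chrX:106187100-106203699 (plus strand) for *Pgk1*, chr9:59656368-59679375 (plus strand) for *Pkm*, and chr7:46841475-46855627 (plus strand) for *Ldha*. Values are summed over the transcripts of a gene.

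Each of the 10 genes had at least 1 RefSeq start site in the GRCm38.p6 table, and together they had 15. The 250 bases before each start were searched on both strands for the hypoxia motif ACGTG, which reads CACGT on the other strand. They were also searched for its second form GCGTG, which reads CACGC on the other strand, with overlaps counted. An interferon response motif was searched in the same way, as a pair of GAAA runs with any 2 bases between them. Of the 15 windows, 12 held at least 1 of the hypoxia motifs, compared to 38.6% of 32851 mouse promoter windows of that length. ACGTG was in 16.6% and GCGTG in 28.2% of all windows, each counted with or without the other. Among the 10 genes, GCGTG was in 1 window each of *Slc2a1*, *Hk1*, *Pfkl*, *Pfkp* and *Ldha*. ACGTG was in 1 window each of *Slc2a1*, *Hk2*, *Hk3*, *Pgk1*, *Pkm* and *Ldha* and in 2 of *Aldoa*. None of the 15 held the interferon response motif, which was in 2.98% of all windows. Start sites of a gene can be close, and 2 of the *Aldoa* windows overlap and hold the same single match, so it is counted in both. A match is a run of letters and was not tested as a binding site. The windows below belong to the genes that the results turn on: both start sites of *Hk1* and the start site of *Hk2*, whose transcripts moved in opposite directions in *Tlr7* KO with libraries scaled by TMM (trimmed mean of M values), the upstream start site of *Ldha*, which had the most matches of the 15, and *Pgk1*, which was called in neither KO. Each is written 5′ to 3′ toward its gene, and capitals mark the hypoxia motifs.
Hk1, upstream start site, GRCm38.p6 chr10:62379909-62380158, minus strand: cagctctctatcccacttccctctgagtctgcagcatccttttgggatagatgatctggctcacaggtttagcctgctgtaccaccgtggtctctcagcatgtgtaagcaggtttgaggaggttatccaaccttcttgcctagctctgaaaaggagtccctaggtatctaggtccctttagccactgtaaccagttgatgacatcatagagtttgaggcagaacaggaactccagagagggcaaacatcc
Hk1, downstream start site, GRCm38.p6 chr10:62340422-62340671, minus strand: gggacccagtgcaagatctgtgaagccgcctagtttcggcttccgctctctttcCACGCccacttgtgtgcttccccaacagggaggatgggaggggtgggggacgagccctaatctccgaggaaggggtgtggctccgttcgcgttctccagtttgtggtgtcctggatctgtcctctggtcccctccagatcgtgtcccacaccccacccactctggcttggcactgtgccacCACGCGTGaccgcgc
Hk2, GRCm38.p6 chr6:82774455-82774704, minus strand: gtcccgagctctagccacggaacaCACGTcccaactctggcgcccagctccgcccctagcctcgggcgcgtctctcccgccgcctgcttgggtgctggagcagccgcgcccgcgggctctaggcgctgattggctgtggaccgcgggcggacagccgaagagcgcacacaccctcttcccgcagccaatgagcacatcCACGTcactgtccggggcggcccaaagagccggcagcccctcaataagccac
Pgk1, GRCm38.p6 chrX:106186850-106187099, plus strand: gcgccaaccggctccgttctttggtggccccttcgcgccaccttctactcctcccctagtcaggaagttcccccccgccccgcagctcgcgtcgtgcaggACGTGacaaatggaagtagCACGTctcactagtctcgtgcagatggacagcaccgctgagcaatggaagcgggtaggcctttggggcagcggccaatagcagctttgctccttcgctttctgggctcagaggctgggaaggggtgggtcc
Ldha, upstream start site, GRCm38.p6 chr7:46845554-46845803, plus strand: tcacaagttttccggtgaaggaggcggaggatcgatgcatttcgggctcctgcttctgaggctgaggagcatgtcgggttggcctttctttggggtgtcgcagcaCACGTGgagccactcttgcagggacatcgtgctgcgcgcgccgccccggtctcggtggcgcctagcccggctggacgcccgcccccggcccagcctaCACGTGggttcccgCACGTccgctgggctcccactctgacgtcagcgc
The upstream *Hk1* window held none of these motifs and the downstream one held 3, of which 2 overlap. *Hk2* and *Pgk1* each held 2 matches and *Ldha* held 5, counting both strands of the palindrome CACGTG.

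Depth was similar between groups, with 20512315 to 28814250 counts assigned to genes per library. The knocked-out gene was lower in each KO. *Tlr7* was at 2.39 ± 0.746 CPM (counts scaled to library totals adjusted by TMM factors; SD, n = 3) in WT and 0.776 ± 0.175 (n = 5) in *Tlr7* KO by edgeR, with a log2 fold change of -1.62 (adjusted p = 0.00364). It was also lower in *Ifnar1* KO, at 0.563 ± 0.289 CPM (n = 3; -2.10, adjusted p = 0.026 by edgeR). *Ifnar1* was at 13.5 ± 2.53 CPM in WT and 9.02 ± 0.625 (n = 3) in *Ifnar1* KO (-0.61, adjusted p = 0.0485), and it was also lower in *Tlr7* KO (-0.51, adjusted p = 0.022). Summed CPM of 12 gland epithelium genes were 2516 to 3962 in WT and 5897 to 6759 in the KO mice, led by the secreted peroxidase *Lpo* (1075 to 2346 CPM in WT and 4211 to 5022 in the KO mice). Of the 12, 4 were called higher, 1 lower and 7 not at all in *Tlr7* KO, and 2 higher, 1 lower and 9 not at all in *Ifnar1* KO, against 15.3% and 6.76% of all genes called higher. Summed CPM of 10 leukocyte genes were 572, 248 and 507 in WT 1, 2 and 3, 187 to 268 in *Tlr7* KO and 151 to 206 in *Ifnar1* KO. Much of each KO sum was *Lcp1*, at 126 to 139 CPM in the KO mice and 111 to 151 in WT. Of the 10 leukocyte genes, 9 were called lower in each KO. B cell genes were called lower for 8 of 8 and T cell genes for 7 of 8 in each KO, and of 10 macrophage genes 5 were lower in *Tlr7* KO and 7 in *Ifnar1* KO. None of the 5 red cell, 7 adipocyte and 2 neutrophil genes tested was called against WT. Neutrophil genes had at most 35 counts in any library, so the lack of a call says little for them. Of 8 endothelial genes 2 were called lower in each KO and 1 higher in *Tlr7* KO. Of 11 skeletal muscle genes tested, 0 were called in *Tlr7* KO and 3 were lower in *Ifnar1* KO. Of 4 salivary gland genes tested, 4 were lower in *Tlr7* KO and 0 were called in *Ifnar1* KO. Of all genes, 17.4% were called lower in *Tlr7* KO, compared to 12.4% in *Ifnar1* KO. Some libraries stood apart. WT 1, WT 2 and *Tlr7* KO 4 held 379 to 528 CPM of 12 skeletal muscle genes, against 1.13 to 15.1 CPM in the other 8. WT 3 and *Ifnar1* KO 2 held 2458 and 2104 CPM of 5 salivary gland genes, *Ifnar1* KO 1 held 179, and the other 8 at most 3.09. In whole tissue, fewer cells of a type and less RNA per cell cannot be told apart.

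Per kilobase of transcript, *Aldoa* was the most abundant of the 10 genes in WT glands, at 84.5 ± 16.7 CPM per kb (SD, n = 3). *Ldha* (36.7 ± 2.92), *Pkm* (30.3 ± 5.80) and *Pgk1* (20.3 ± 1.21) followed on the same scale. *Hk1* (5.52 ± 0.798) and *Hk2* (4.53 ± 0.577) were next, then *Pfkl* (3.43 ± 0.503), *Slc2a1* (1.62 ± 0.485), *Pfkp* (1.59 ± 0.864) and *Hk3* (0.426 ± 0.250). In WT the mice of neighbouring genes in this order did not overlap, except for *Hk1* and *Hk2* and for *Slc2a1* and *Pfkp*. In the KO glands *Hk2* stood above *Hk1* with no overlap, at 6.84 ± 0.572 against 2.55 ± 0.385 CPM per kb in *Tlr7* KO (n = 5) and 6.0 ± 1.27 against 2.51 ± 0.399 in *Ifnar1* KO (n = 3). In *Tlr7* KO the neighbours *Pgk1* and *Pkm*, *Pfkl* and *Slc2a1*, and *Pfkp* and *Hk3* overlapped. In *Ifnar1* KO *Pgk1* overlapped with *Ldha* and with *Pkm*, while *Ldha* lay above *Pkm* in all mice. Neighbours among the 4 lowest genes also overlapped.

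All 10 genes passed the filter of at least 30 counts summed over the WT mice. Log2 fold changes are KO minus WT and carry their SE. In WT compared to *Tlr7* KO glands, 6 of the 10 genes were called by edgeR's quasi-likelihood test at an adjusted p (Benjamini-Hochberg over all genes tested) under 0.05, and 32.7% of the 13937 genes tested were called. *Hk1*, *Pfkl*, *Pfkp*, *Pkm* and *Ldha* were lower in the KO, and *Hk2* was higher. Of all genes tested, 17.4% were called lower and 15.3% higher. *Slc2a1*, *Hk3*, *Aldoa* and *Pgk1* did not pass. The groups did not overlap for 3 of the 10 that were lower (*Hk1*, *Pfkl*, *Ldha*) and 2 that were higher (*Hk2*, *Pgk1*), against 14.5% and 16.1% of all genes (30.6% in either direction). Over the 10 genes the log2 fold change had a median of -0.46, and over all genes tested of -0.04.

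In WT compared to *Ifnar1* KO glands, 4 of the 10 were called, against 19.2% of the 13937 genes tested. All 4 (*Hk1*, *Pfkl*, *Pfkp*, *Ldha*) were lower in the KO, a direction taken by 12.4% of all genes tested. *Aldoa* and *Pkm* also lay below WT in every *Ifnar1* KO mouse and missed the threshold in edgeR (adjusted p = 0.0578 and 0.0656), while DESeq2 called both (0.0137 and 0.0265), as did edgeR with all 11 mice in 1 fit (0.0379 and 0.0133). So 6 of the 10 had no overlap in that direction, against 21.2% of all genes (41.6% in either direction, 20.4% higher in the KO). The median of the 10 was -0.70, and that of all genes -0.02. The call of each of the 4 was lost without WT 1, without WT 3, without *Ifnar1* KO 1 and without *Ifnar1* KO 3, when adjusted p values were 0.0543 to 0.107. In those fits 13, 103, 0 and 0 of all genes were called. Without the 2 libraries with the most salivary gland transcripts (WT 3 and *Ifnar1* KO 2, with *Ifnar1* KO 1 kept), 1 of the 10 was called (*Hk1*, adjusted p = 0.0497). The log2 fold changes of *Pfkl*, *Pfkp* and *Ldha* were then -0.94, -2.51 and -0.67, compared to -0.99, -2.21 and -0.62 with all mice.

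Between the KO groups, 0 of the 10 differed at an adjusted p under 0.05 in edgeR and 0 in DESeq2, while 1.79% of all genes did (250 of 13935, 0.868% lower and 0.926% higher in *Tlr7* KO). At an unadjusted p under 0.05 there was 1, *Slc2a1*, against 2270 of the 13935 genes. With the replicate number as a block the count of all genes was 502 and that of the 10 remained 0. None of the 10 lay apart without overlap, against 10.9% of all genes (5.42% lower and 5.44% higher in *Tlr7* KO). Log2 differences of *Tlr7* KO over *Ifnar1* KO ranged from -0.05 ± 0.13 (SE) for *Pfkl* to 0.70 ± 0.50 for *Hk3*. Both KO groups are compared with the same 3 WT mice, so their differences from WT are not independent.

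**Figure D1:**
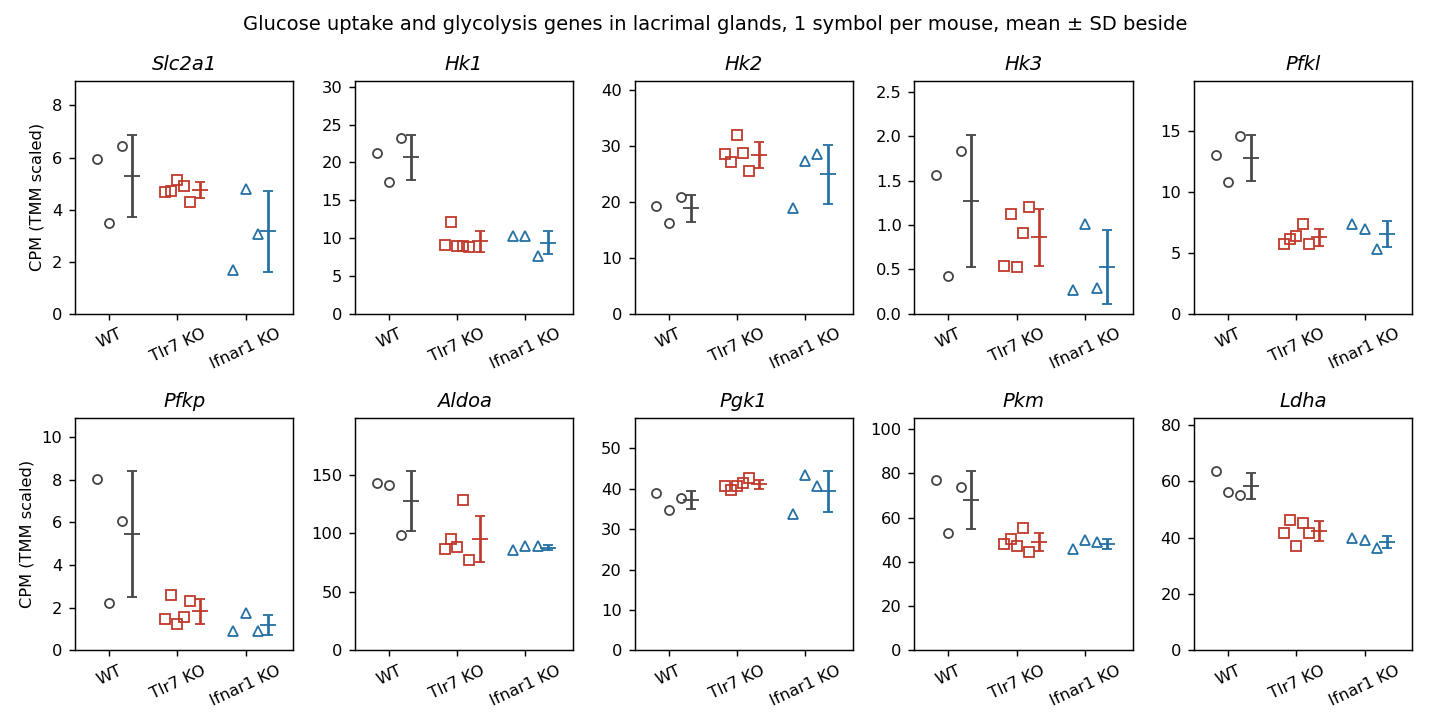
CPM of each gene, scaled with TMM factors, in WT (circles), *Tlr7* KO (squares) and *Ifnar1* KO (triangles), with 1 symbol per mouse and the mean ± SD beside each group. *Hk1*, *Pfkl* and *Ldha* lie lower in all KO mice than in all WT mice, *Hk2* lies higher in all 5 *Tlr7* KO mice, and *Pgk1* stays between 33.8 and 43.4 CPM.

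**Figure D2:**
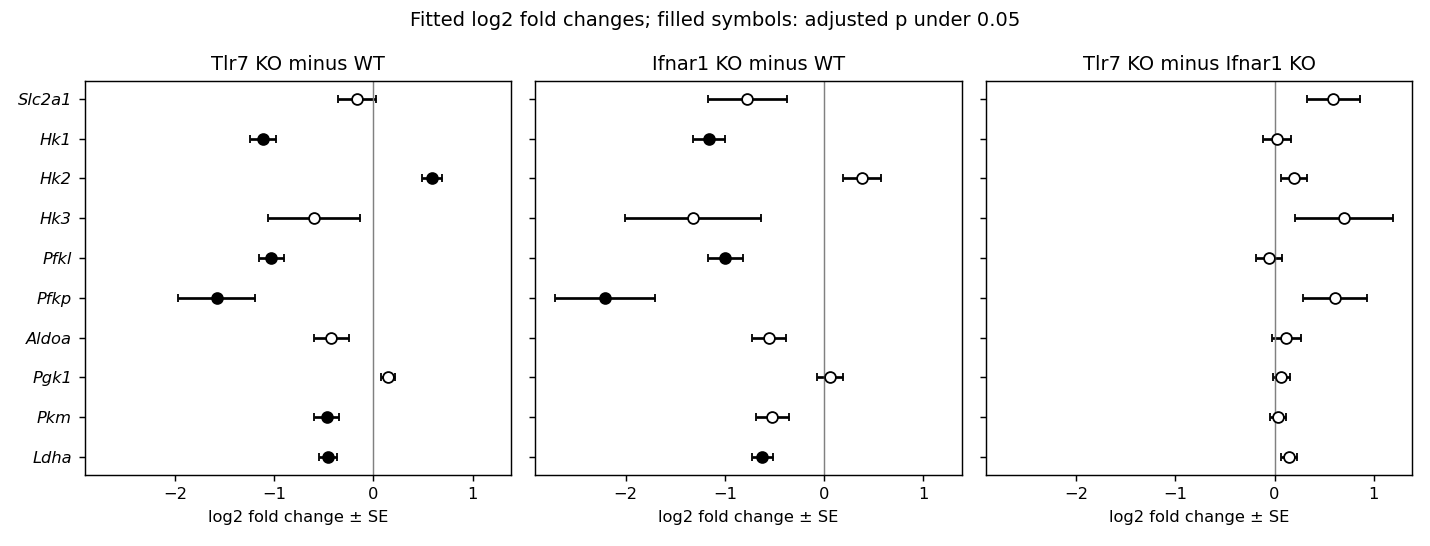
Fitted log2 fold change ± SE of the 10 genes in the 3 comparisons, with filled symbols for an adjusted p under 0.05. The left and middle panels share the WT mice, and no symbol is filled in the right panel, which compares the KO groups.

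*Slc2a1* encodes GLUT1, the basal glucose carrier of most cells. It was at 5.94, 3.49 and 6.45 CPM in WT 1, 2 and 3, at 4.67, 4.72, 5.12, 4.91 and 4.30 CPM in *Tlr7* KO 1 to 5, and at 1.67, 4.78 and 3.05 CPM in *Ifnar1* KO 1 to 3. The 3 groups overlapped, and the spread was narrowest in *Tlr7* KO (SD 0.307). The log2 difference from WT was -0.17 ± 0.19 in *Tlr7* KO (adjusted p = 0.527), compared to -0.77 ± 0.40 in *Ifnar1* KO (adjusted p = 0.201). Without WT 2 it was called in *Tlr7* KO (-0.39, adjusted p = 0.016), and without WT 3 it was 0.00097. Between the KO groups it was 0.59 ± 0.26 higher in *Tlr7* KO (adjusted p = 0.304). It was called without *Ifnar1* KO 2 (1.03, adjusted p = 0.0244), and without *Ifnar1* KO 1 it was 0.28 (adjusted p = 0.556).

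*Hk1*, the hexokinase of most tissues, is bound to the outer mitochondrial membrane. It was at 21.3, 17.4 and 23.3 CPM in the WT mice, at 9.04, 12.1, 8.92, 8.92 and 8.81 CPM in *Tlr7* KO 1 to 5, and at 10.2, 10.3 and 7.69 CPM in *Ifnar1* KO 1 to 3. Every KO mouse lay below every WT mouse. It fell 2.16-fold in *Tlr7* KO (log2 fold change -1.11 ± 0.13, adjusted p = 0.00104), compared to 2.23-fold in *Ifnar1* KO (-1.16 ± 0.16, adjusted p = 0.0207). In *Tlr7* KO the call held in each of the 8 fits that left out 1 mouse. *Tlr7* KO 2, the highest of its group, also had the highest leukocyte (268 CPM) and adipocyte (38.3 CPM) sums of the KO mice.

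*Hk2*, the insulin-responsive and HIF-1-inducible hexokinase of muscle, fat and proliferating cells, went the other way. It was at 19.3, 16.2 and 20.9 CPM in WT and at 28.6, 27.1, 32.0, 28.7 and 25.6 CPM in *Tlr7* KO 1 to 5, with no overlap. In *Ifnar1* KO 1 to 3 it was at 18.9, 27.2 and 28.6 CPM, so that *Ifnar1* KO 1 lay among the WT mice. It rose 1.51-fold in *Tlr7* KO (0.59 ± 0.10, adjusted p = 0.00411) and in all 8 fits that left out 1 mouse. In *Ifnar1* KO the difference was 0.38 ± 0.19 (adjusted p = 0.188). The gland epithelium sum was also higher in every KO mouse than in every WT mouse. Its rise was mostly that of *Lpo* (1075 to 2346 CPM in WT and 4211 to 5022 in the KO mice). The part of epithelium in the *Hk2* difference was not tested. The level of *Hk2* relative to WT depended on the scaling between libraries. With library size alone the median of all genes moved to -0.54 in *Tlr7* KO and 97.2% of calls were lower, compared to 53.2% with TMM. The log2 fold change of *Hk2* was then 0.06 (adjusted p = 0.847), which is 0.60 above that median. For *Ifnar1* KO the median moved to -0.31, with 96.2% of calls lower compared to 64.8%, and between the KO groups it moved to -0.19, with 69.4% lower in *Tlr7* KO compared to 48.4%.

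*Hk2* was the housekeeping gene to which the study normalized its quantitative PCR. With *Hk2* counts as the denominator in these libraries, a KO minus WT log2 difference moved by -0.60 in *Tlr7* KO and by -0.39 in *Ifnar1* KO relative to the TMM scale. The study took the 6 genes so normalized from strongly changed genes and a cytokine receptor pathway in these same RNA data. Their direction here was therefore set beforehand. All 6 were called lower in each KO, against 17.4% and 12.4% of all genes, and their KO values stayed below all WT values when divided by *Hk2*. *Il21* had 0 to 1 counts in *Tlr7* KO and 0 in *Ifnar1* KO libraries, *Sostdc1* 0 to 5 and 0 to 1, and *C4a* 1 to 4 and 3 to 4. They passed the filter through their WT counts, and their folds are imprecise. Of 16 genes often used as PCR references, 3 were called lower and 3 higher in *Tlr7* KO, and 2 lower and 3 higher in *Ifnar1* KO, where 32.7% and 19.2% of all genes were called in either direction. The 3 that changed most in each KO were *Tfrc*, the transferrin receptor, at 1.46 and 1.33, *B2m*, the MHC class I light chain, at -1.02 and -2.06, and the ribosomal protein gene *Rpl13a*, at -0.75 and -0.98 in *Tlr7* KO and *Ifnar1* KO.

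*Hk3*, a hexokinase of myeloid cells, had low counts, with 10 to 67 counts in WT libraries, 14 to 26 in *Tlr7* KO and 7 to 27 in *Ifnar1* KO. It was at 1.56, 0.426 and 1.83 CPM in WT, at 0.531 to 1.21 CPM in *Tlr7* KO and at 0.273 to 1.01 CPM in *Ifnar1* KO. The groups overlapped because of WT 2. The log2 difference was -0.60 ± 0.46 in *Tlr7* KO (adjusted p = 0.343), compared to -1.32 ± 0.69 in *Ifnar1* KO (adjusted p = 0.202). Without WT 2 it was called in *Tlr7* KO (-1.0, adjusted p = 0.038), and without WT 3 it was -0.25 (adjusted p = 0.771). Without *Ifnar1* KO 2 the difference in *Ifnar1* KO was -2.19 (adjusted p = 0.0923), and without *Ifnar1* KO 1 it was -0.97 (adjusted p = 0.431). Among other myeloid markers, 10 macrophage and monocyte genes summed to 219 to 408 CPM in WT, 198 to 230 in *Tlr7* KO and 60.6 to 174 in *Ifnar1* KO, with WT 2 lowest in WT as for *Hk3*. Neutrophil markers summed to 0.937 to 2.09 CPM over 4 genes in all 11 mice. The part of either cell type in *Hk3* was not tested.

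The count ratio of *Hk1* to *Hk2* within a library does not depend on scaling. It was 1.1, 1.07 and 1.11 in WT 1, 2 and 3. It was 0.316, 0.448, 0.279, 0.312 and 0.345 in *Tlr7* KO 1 to 5 and 0.543, 0.379 and 0.270 in *Ifnar1* KO 1 to 3. Every KO mouse lay below every WT mouse. The difference of the mean log2 ratio was -1.71 in *Tlr7* KO (exact permutation test, two-sided, p = 0.0357, the smallest that 3 against 5 mice allow) and -1.52 in *Ifnar1* KO (p = 0.1, the smallest exact value for 3 against 3). Adjusted over 15 ratio tests these were 0.268 and 0.375, and with these group sizes no adjusted value could fall under 0.05. On the per-length scale *Hk1* made up 52.4 to 53.5% of hexokinase transcripts in WT, 23.2 to 31.9% in *Tlr7* KO and 22.7 to 37.1% in *Ifnar1* KO. *Hk2* made up 42.5 to 44.9%, 64.4 to 75.1% and 61.7 to 76.2%. The sum of the 3 hexokinases overlapped between groups, at 10.5 ± 1.62 CPM per kb in WT, 9.68 ± 0.547 in *Tlr7* KO and 8.69 ± 1.18 in *Ifnar1* KO. The ratio of *Hk3* to *Hk1* overlapped in each comparison.

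**Figure D3:**
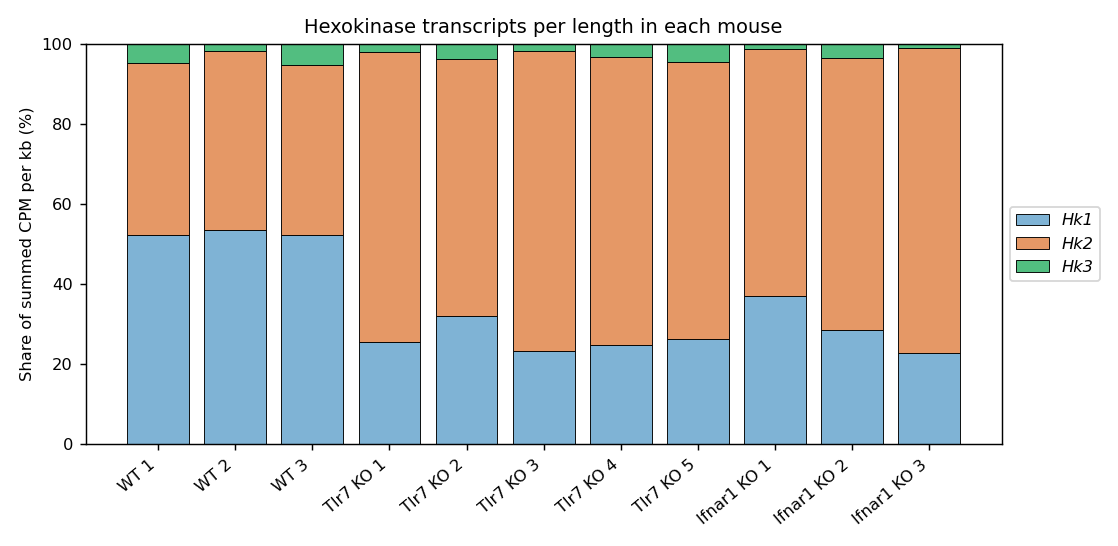
Share of *Hk1*, *Hk2* and *Hk3* in the summed hexokinase CPM per kb of each mouse, as stacked bars adding to 100%. *Hk1* takes at least 52.4% in the 3 WT mice and at most 37.1% in the 8 KO mice, where *Hk2* takes at least 61.7%.

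For each hexokinase, the 3 genes whose log2 CPM deviations from the group mean were most like it over the 11 mice were taken from 5046 genes averaging 10 CPM or more. They were *Rap1b* (Pearson r = 0.96), *Rnf19b* (0.94) and *Acsl5* (0.91) for *Hk1*. They were *Cyb5b* (0.94), *Cyld* (0.92) and *Gstk1* (0.92) for *Hk2*, and *Ifitm3* (0.94), *C1s1* (0.93) and *Zgpat* (0.93) for *Hk3*. The points share library and depth, and the r values are the highest of 5046 and are given as a description.

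*Pfkl*, the liver-type phosphofructokinase subunit, followed *Hk1*. It was at 13.0, 10.8 and 14.5 CPM in WT, at 5.74, 6.16, 6.38, 7.39 and 5.71 CPM in *Tlr7* KO 1 to 5 and at 7.34, 6.95 and 5.31 CPM in *Ifnar1* KO 1 to 3. All KO mice lay below all WT mice. It fell 2.04-fold in *Tlr7* KO (-1.03 ± 0.12, adjusted p = 0.00105), compared to 1.99-fold in *Ifnar1* KO (-0.99 ± 0.17, adjusted p = 0.0225). The *Tlr7* KO call held in all 8 fits without 1 mouse.

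*Pfkp*, the platelet-type subunit, was at 8.01, 2.21 and 6.07 CPM in WT 1, 2 and 3, at 1.45, 2.60, 1.25, 1.57 and 2.31 CPM in *Tlr7* KO 1 to 5 and at 0.922, 1.76 and 0.919 CPM in *Ifnar1* KO 1 to 3. WT 2 lay within the range of *Tlr7* KO and above all *Ifnar1* KO mice. It fell 2.99-fold in *Tlr7* KO (-1.58 ± 0.38, adjusted p = 0.0136), compared to 4.63-fold in *Ifnar1* KO (-2.21 ± 0.51, adjusted p = 0.0287). The *Tlr7* KO call was lost without WT 1 (-1.19, adjusted p = 0.0638). The ratio of *Pfkp* to *Pfkl* overlapped between groups, with log2 differences of -0.40 (exact permutation p = 0.429) in *Tlr7* KO and -1.07 (exact permutation p = 0.2) in *Ifnar1* KO.

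WT 2 was the lowest WT mouse for 8 of the 10 genes, the exceptions being *Aldoa* and *Ldha*. It had the lowest WT sums of leukocyte (248 CPM), T cell (25.8 CPM), B cell (81.2 CPM) and macrophage (219 CPM) genes. Its gland epithelium (2516 CPM), endothelial (18.4 CPM) and neutrophil (0.937 CPM) sums were also the lowest in WT. Its red cell, adipocyte, muscle and salivary gland sums were not. The TMM factor of WT 2 was 0.864, against 1.44 in WT 1 and 1.48 in WT 3. The summed leukocyte genes were lower in all *Ifnar1* KO mice and in 4 of 5 *Tlr7* KO mice than in WT 2. The exception was *Tlr7* KO 2. A large part of both sums was *Lcp1*, which overlapped between groups, at 132 CPM in *Tlr7* KO 2 and 111 in WT 2. The part of leukocytes in the lower *Hk1*, *Pfkl*, *Pfkp*, *Pkm* and *Ldha* of the KO glands was not tested.

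*Aldoa*, the aldolase of muscle and most other tissues, was at 142.9, 141.7 and 98.6 CPM in WT 1, 2 and 3. It was at 86.4, 95.1, 88.5, 128.5 and 77.1 CPM in *Tlr7* KO 1 to 5 and at 85.6, 88.9 and 89.4 CPM in *Ifnar1* KO 1 to 3. The 3 highest libraries, WT 1, WT 2 and *Tlr7* KO 4, were those with skeletal muscle transcripts. The difference from WT was -0.42 ± 0.18 in *Tlr7* KO (adjusted p = 0.0915), compared to -0.56 ± 0.17 in *Ifnar1* KO (adjusted p = 0.0578). Without the 3 libraries it was -0.18 (adjusted p = 0.267) and -0.21 (adjusted p = 0.408), with WT 3, a library with salivary gland transcripts, then the lone WT mouse and assumed to vary like the others. Without *Tlr7* KO 4 alone it was called (-0.55, adjusted p = 0.0304), as it was without WT 3 (-0.58, adjusted p = 0.0463). The muscle enolase *Eno3* had the same split, at 12.8 to 17.9 CPM in those 3 libraries and 1.15 to 2.52 in the other 8.

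**Figure D4:**
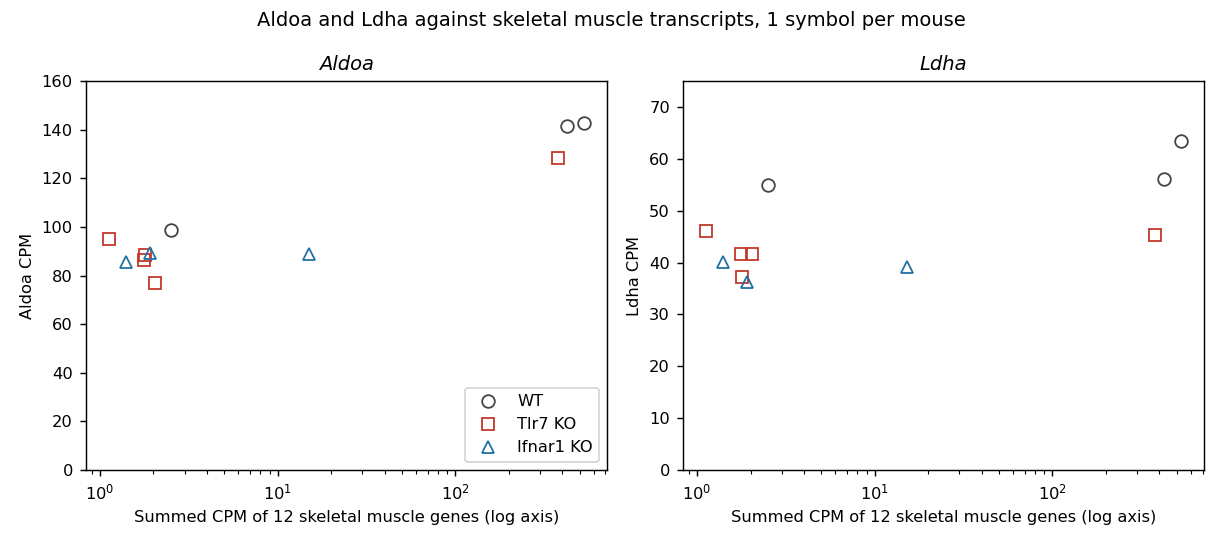
CPM of *Aldoa* (left) and *Ldha* (right) against the summed CPM of 12 skeletal muscle genes on a log axis, with 1 symbol per mouse. The 3 mice at 379 to 528 CPM of muscle genes have *Aldoa* at 128.5 to 142.9 CPM and all others at 98.6 CPM or less, whereas *Ldha* separates WT from KO mice at either end of the axis.

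*Pgk1*, the phosphoglycerate kinase that makes the first ATP of glycolysis, was at 39.0, 34.7 and 37.6 CPM in WT, at 40.7, 39.5, 40.7, 41.4 and 42.7 CPM in *Tlr7* KO 1 to 5 and at 33.8, 43.4 and 40.7 CPM in *Ifnar1* KO 1 to 3. All 5 *Tlr7* KO mice lay above WT by a small margin. The difference was 0.14 ± 0.07 in *Tlr7* KO (adjusted p = 0.142), compared to 0.06 ± 0.13 in *Ifnar1* KO (adjusted p = 0.766), and with library size alone it was -0.38 and -0.26.

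*Pkm*, the pyruvate kinase of non-hepatic tissues, was at 76.9, 53.0 and 73.7 CPM in WT 1, 2 and 3. It was at 48.1, 50.5, 47.0, 55.1 and 44.4 CPM in *Tlr7* KO 1 to 5 and at 45.6, 49.7 and 48.9 CPM in *Ifnar1* KO 1 to 3. *Tlr7* KO 4 lay above WT 2, both of them libraries with muscle transcripts, and all *Ifnar1* KO mice lay below WT. It fell 1.39-fold in *Tlr7* KO (-0.47 ± 0.13, adjusted p = 0.0211), a call that was lost without WT 1, WT 3, *Tlr7* KO 1 or *Tlr7* KO 3 (-0.36, -0.41, -0.46 and -0.46, adjusted p = 0.0504 to 0.0892). Without the muscle libraries, which leaves WT 3 with its salivary gland transcripts as the lone WT mouse, it was -0.63. In *Ifnar1* KO it was -0.52 ± 0.17 (adjusted p = 0.0656), and it was called without WT 2 (-0.68, adjusted p = 0.00601). Without the muscle libraries it was -0.66 there. Gene counts do not separate the M1 and M2 isoforms of *Pkm*.

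*Ldha*, the lactate-producing subunit, was at 63.5, 56.1 and 55.0 CPM in WT, at 41.7, 46.2, 37.2, 45.3 and 41.7 CPM in *Tlr7* KO 1 to 5 and at 40.1, 39.1 and 36.2 CPM in *Ifnar1* KO 1 to 3. All 8 KO mice lay below all WT mice. It fell 1.37-fold in *Tlr7* KO (-0.46 ± 0.09, adjusted p = 0.00657), compared to 1.54-fold in *Ifnar1* KO (-0.62 ± 0.11, adjusted p = 0.0225). Without the muscle libraries, where WT 3 is the lone WT mouse and is assumed to vary as the KO mice do, it was -0.40 (adjusted p = 0.0383) and -0.56 (adjusted p = 0.0556), and the call in *Ifnar1* KO was lost. Its partner *Ldhb*, the subunit of oxidative tissues, was at 1.99 ± 0.498 CPM in WT and 1.20 ± 0.375 in *Tlr7* KO and was not called, and the ratio of *Ldha* to *Ldhb* overlapped between groups.

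Of 43 further genes of glucose transport, glycolysis, lactate and pyruvate use, 38 were tested. In *Tlr7* KO 7 were called lower and 5 higher than in WT, and in *Ifnar1* KO 9 lower and 4 higher. Of all genes tested, 17.4% and 15.3% were called lower and higher in *Tlr7* KO and 12.4% and 6.76% in *Ifnar1* KO, and the count in *Tlr7* KO is close to that background. The 38 genes had median log2 fold changes of -0.09 and -0.01. Between the KO groups 0 were called by edgeR or DESeq2, and 8 had an unadjusted p under 0.05 in edgeR, as did 2270 of all 13935 genes. The 5 with the largest change among those called in *Tlr7* KO were all lower. They were *Pdk4*, a kinase that inhibits pyruvate dehydrogenase (-2.90 ± 0.50, adjusted p = 0.0036), *Slc2a3*, the GLUT3 carrier of leukocytes and neurons (-2.31 ± 0.48, adjusted p = 0.00775), *Pfkfb3*, which makes the activator of phosphofructokinase (-1.46 ± 0.26, adjusted p = 0.00431), *Slc16a3*, a lactate exporter (-1.24 ± 0.39, adjusted p = 0.0355), and *Aldoc*, the brain aldolase (-0.96 ± 0.30, adjusted p = 0.0364).

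In *Ifnar1* KO the 5 largest changes among called genes were in *Slc2a3* (-3.03 ± 0.58), *Eno3* (-2.75 ± 0.66), *Pdk4* (-2.71 ± 0.52), *Slc16a3* (-2.56 ± 0.44) and *Pfkfb3* (-2.09 ± 0.43), with adjusted p values of 0.0222 to 0.0316. In *Ifnar1* KO libraries *Slc16a3* had 4 to 5 counts (16 to 39 in WT) and *Slc2a3* 3 to 11 (21 to 95 in WT). Both passed the filter through their WT counts, and their fitted folds near the floor of 3 counts per library are imprecise. Without the muscle libraries *Eno3* was at -0.63 (adjusted p = 0.289) and *Pdk4* at -1.96 (adjusted p = 0.102), and 4 of the 38 genes were called in place of 13, while the calls over all genes went from 2677 to 1596. Without WT 1, *Ifnar1* KO 1 or *Ifnar1* KO 3 none of the 38 was called, and without WT 3 2 were. In *Tlr7* KO the count ranged from 7 without WT 1 to 22 without WT 2, where 2735 and 6595 of all genes were called (4564 with all mice). *Slc2a3* was at 2.0 ± 0.959 CPM in WT, 0.403 ± 0.208 in *Tlr7* KO and 0.247 ± 0.147 in *Ifnar1* KO. In *Tlr7* KO libraries it had 3 to 15 counts, so its fold there is imprecise as well. The log2 ratio of *Slc2a1* to *Slc2a3* was 1.49 ± 0.387 in WT, 3.69 ± 0.959 in *Tlr7* KO and 3.60 ± 0.739 in *Ifnar1* KO. Neither KO overlapped with WT (exact permutation p = 0.0357 and 0.1, adjusted 0.268 and 0.375). The size of the KO ratios is imprecise, since *Slc2a3* reached the floor of 3 counts in both KO groups.

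The genes called higher in both KO groups were *Mpc1*, a subunit of the mitochondrial pyruvate carrier (0.92 in *Tlr7* KO and 0.77 in *Ifnar1* KO), *Slc16a1*, a lactate and pyruvate carrier (0.86 and 1.52), *Pfkfb2*, a heart and kidney isoform of the phosphofructokinase regulator (0.42 and 0.50), and *Pdhb*, a subunit of pyruvate dehydrogenase (0.30 and 0.50). *Mpc2*, the other carrier subunit, was higher in *Tlr7* KO (0.32, adjusted p = 0.0434). These 5, and the next 2 genes, were chosen after their values were seen. *Gpi1*, phosphoglucose isomerase, was called lower in each KO (-0.38 and -0.46), as was the enolase *Eno1* (-0.90 and -1.19). *Eno1* shares reads with its near-identical copy *Eno1b*, and *Gapdh*, which has many processed copies, had only 4 to 165 counts per library, so both are uncertain.

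**Figure D5:**
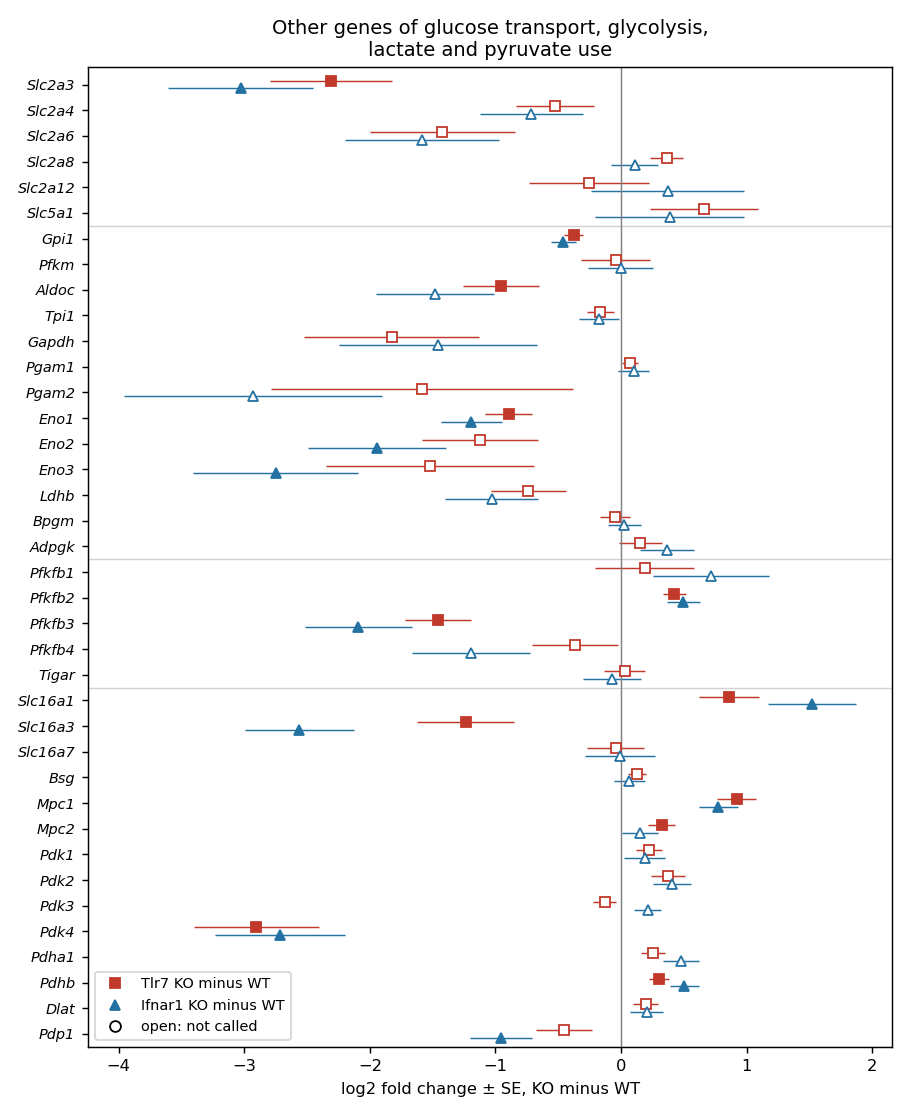
Log2 fold change ± SE of the other tested genes in *Tlr7* KO (squares) and *Ifnar1* KO (triangles) compared to the same WT mice, from carriers at the top to lactate and pyruvate genes at the bottom, with filled symbols for an adjusted p under 0.05. *Slc2a3*, *Pfkfb3*, *Slc16a3* and *Pdk4* lie to the left and *Slc16a1*, *Mpc1*, *Pfkfb2* and *Pdhb* to the right of 0 in both.

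Of 7 genes of the pentose phosphate pathway, which makes NADPH and ribose, 0 were called lower and 3 higher in *Tlr7* KO, where 17.4% of all genes were lower and 15.3% higher. In *Ifnar1* KO 0 were lower and 1 higher, against 12.4% and 6.76%. *Pgd*, 6-phosphogluconate dehydrogenase, was higher in *Tlr7* KO (0.51 ± 0.07, adjusted p = 0.00159) and *Ifnar1* KO (0.70 ± 0.11, adjusted p = 0.0213). *Taldo1* (0.40 ± 0.08) and *Tkt* (0.25 ± 0.08), which exchange carbon units with glycolysis, were higher in *Tlr7* KO. Higher calls depended on the scaling: with library size alone 123 of all genes were called higher in *Tlr7* KO, compared to 2135 with TMM. Which of the higher calls in the further lists remained then is not shown here. Of 14 genes of glycogen use and gluconeogenesis, 1 was called lower and 3 higher in *Tlr7* KO, and 2 lower and 1 higher in *Ifnar1* KO, counts near the 32.7% and 19.2% of all genes that were called. *Pcx*, pyruvate carboxylase, rose from 21.6 ± 6.76 CPM in WT to 50.7 ± 5.46 in *Tlr7* KO (1.22 ± 0.19, adjusted p = 0.00275). *Pygb*, the brain glycogen phosphorylase, was lower in each KO (-1.15 and -0.98), and the glucose 6-phosphatase gene *G6pc3* was higher in each (0.42 and 0.59). *Pgm1*, phosphoglucomutase, was higher in *Tlr7* KO (0.30 ± 0.10, adjusted p = 0.0396). *Pygm*, the muscle glycogen phosphorylase, was called lower in *Ifnar1* KO and was at 13.1 to 17.3 CPM in the 3 libraries with muscle transcripts and at most 0.561 in the other 8. Between the KO groups *Fbp1*, fructose bisphosphatase, was called, at 1.83 ± 0.185 CPM in *Ifnar1* KO and 3.71 ± 0.571 in *Tlr7* KO (1.02 ± 0.17, adjusted p = 0.0217).

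Of 11 regulators of glucose use, *Txnip*, which restrains glucose uptake, fell in *Tlr7* KO from 197.2 ± 92.4 to 72.0 ± 13.7 CPM (-1.45 ± 0.28, adjusted p = 0.00598), and the oxygen sensor *Egln1* rose (0.25 ± 0.07, adjusted p = 0.0281). None was called in *Ifnar1* KO. Over all genes 32.7% and 19.2% were called, so these counts do not set the list apart. Of 10 other HIF-1 target genes, 5 were called lower in *Tlr7* KO and 4 in *Ifnar1* KO, against 17.4% and 12.4% of all genes, and none higher. *Ndrg1* (-1.0 and -1.28), *Ddit4* (-0.42 and -0.71) and *Ankrd37* were lower in both, *P4ha1* (-0.92) and *Kdm3a* (-0.49) in *Tlr7* KO and *Adm* in *Ifnar1* KO. *Ankrd37* was at 26 to 74 counts in WT libraries, 0 to 12 in *Tlr7* KO and 3 to 10 in *Ifnar1* KO, and *Adm* at 11 to 14 in WT and 2 to 4 in *Ifnar1* KO. Both passed the filter through their WT counts, and their KO levels are too near the floor of 3 counts per library for a precise fold. Without WT 3 and *Ifnar1* KO 2, *Ankrd37*, *Ndrg1* and *Ddit4* were not called in *Ifnar1* KO (adjusted p = 0.0972, 0.0784 and 0.0599). Of the 15 genes named from the further lists and tested in that fit, 4 were called (*Eno3*, *Pdk4*, *Pygm* and *B2m*). In *Tlr7* KO 14 of 22 were called without WT 3, and *Aldoc*, *Slc16a3*, *Tkt*, *Pgm1*, *Egln1*, *Ankrd37*, *P4ha1* and *B2m* were not. Their log2 fold changes kept their signs, at -0.70, -1.16, 0.26, 0.28, 0.19, -2.54, -0.89 and -0.92 in that order. In WT compared to *Ifnar1* KO no gene of any kind was called when *Ifnar1* KO 1 or *Ifnar1* KO 3 was left out. These genes are also expressed by leukocytes, whose markers were lower in the same mice, and their part in these differences was not tested.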

How the data were processed

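RNA of 1 lacrimal gland sample per mouse was sequenced from 3 WT, 5 *Tlr7* KO and 3 *Ifnar1* KO mice. The authors deposited estimated counts per gene from salmon and tximport (19058 genes, 485 of them with no symbol), given as whole numbers. They also deposited whole-number counts per gene from reads aligned with HISAT2 2.1.0 to mm10 (39017 genes, Ensembl release 97 names). For these the counting program is not given in the sources used here. The first table is named as normalized, but its library totals (20512315 to 28814250) and TMM factors (0.692 to 1.48) differ as those of raw counts do, and it was used as the main table. 1 column with no sample among those described was not used. The authors' own comparison columns were not used.

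Each comparison was fitted on its own mice with edgeR 4.0.16 (R 4.3.3, limma 3.58.1), TMM scaling and the quasi-likelihood test, after a filter of at least 30 counts summed over WT. Genes with an adjusted p under 0.05 were called. CPM used TMM factors over all 11 mice, and CPM per kb used the median length of GENCODE coding transcripts. Log2 CPM used a prior count of 2, and ratios a prior of 0.5. The code was tested on simulated counts. Alternatives were DESeq2 1.42.0, other scalings and filters, all 11 mice in 1 fit, the replicate number as a block, the second table and leaving out each mouse. Fits without the 3 libraries with muscle transcripts, or the 2 with the most salivary gland transcripts, were chosen after seeing the data. Deviations of same-numbered *Ifnar1* KO and *Tlr7* KO mice correlated at 0.13, 0.39 and 0.35, so by these data alone the numbers may pair these mice. The reported values are from fits without the block, and the blocked counts are given as an alternative. Same-numbered WT and KO mice did not deviate together. The mice are separate samples in the labels, and p-values measure the spread between them.

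The genes and gene lists were chosen with earlier results of these data known. Named genes of each list are the 5 called with the largest change per comparison, and for PCR references the 3. For each hexokinase the 3 most similar genes are named.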

Additional observations from a re-analysis of the deposited data

Results flagged for a closer look

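*Hk1* in *Tlr7* KO 2 was at 12.1 CPM, against 8.81 to 9.04 CPM in the other 4 *Tlr7* KO mice, a gap larger than Dixon's 95% critical value of 0.71 of the group's range allows. This was the only mouse so marked over the 10 genes in the *Tlr7* KO group, and chance marks about 1 group in 20. The same mouse had the highest summed leukocyte (268 CPM), T cell (30 CPM) and B cell (50.3 CPM) genes of the *Tlr7* KO mice. It was also highest in that group for macrophage (230 CPM) and adipocyte (38.3 CPM) sums. Its gland epithelium, red cell, neutrophil and muscle sums were the lowest of the group. The part of any of these cells in its *Hk1* level was not tested.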

How the results depend on the processing

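In WT compared to *Tlr7* KO, *Hk1*, *Pfkl*, *Hk2* and *Ldha* were called in each fit without 1 mouse, and the counts of calls without 1 mouse were 4 to 8 of the 10 genes, 7 to 22 of the 38 other glycolysis genes and 2601 to 6595 of all genes. In WT compared to *Ifnar1* KO they were 0 to 5, 0 to 19 and 0 to 4643, and between the KO groups 0 to 1, 0 to 1 and 85 to 877. Same-numbered WT and KO mice did not deviate together, but the labels do not say what the numbers mean, and so few mice cannot exclude pairing. With the replicate block 14 of all genes, 0 of the 10 and 0 of the 38 were called in *Tlr7* KO, and 0, 0 and 0 in *Ifnar1* KO, and between the KO groups 502, 0 and 0. Without WT 3 and *Ifnar1* KO 2, the libraries with the most salivary gland transcripts, 2601 of all genes were called in *Tlr7* KO, and in *Ifnar1* KO 449 of all genes, 1 of the 10 and 3 of the 38. Without the muscle libraries, with WT 3 the lone WT mouse, 1596 of all genes and 4 of the 38 were called in *Ifnar1* KO. With library size only 1339 and 6 were. With all 11 mice in 1 fit 5124 of all genes were called in *Ifnar1* KO and 93 between the KO groups, where DESeq2 called 577. In *Ifnar1* KO 6 of the 10 were called with all 11 mice in 1 fit and 6 by DESeq2. Fewer mice are fitted in the leave-out fits, and the cause of the other changes was not tested.

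Among the 10 genes and the ratios, changes of sign were confined to values that were not called. For the genes of the further lists, signs with library size only are not shown here. With library size only, *Pgk1* was at -0.38 in *Tlr7* KO and -0.26 in *Ifnar1* KO, and between the KO groups *Hk1* was at -0.17, *Aldoa* at -0.050, *Pgk1* at -0.12, *Pkm* at -0.14 and *Ldha* at -0.045. Without those salivary gland libraries *Slc2a1* in *Tlr7* KO was at 0.00097, and *Pgk1* in *Ifnar1* KO at -0.0049. Leaving out 1 mouse at a time, *Slc2a1* in *Tlr7* KO ranged from -0.39 to 0.00097 and *Pgk1* in *Ifnar1* KO from -0.0063 to 0.18. Between the KO groups *Hk1* ranged from -0.095 to 0.0998, *Pfkl* from -0.18 to 0.038, *Aldoa* from -0.012 to 0.18, *Pgk1* from -0.029 to 0.15 and *Pkm* from -0.011 to 0.065. The log2 ratio of *Hk3* to *Hk1* in *Ifnar1* KO was 0.13 in the second table and ranged from -0.66 to 0.26 without 1 mouse. Between the KO groups that of *Hk1* to *Hk2* ranged from -0.44 to 0.070, that of *Ldha* to *Ldhb* from -0.34 to 0.23 and that of *Slc2a1* to *Slc2a3* from -0.31 to 0.48. Depth limits *Hk3*, with 7 to 67 counts per library.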
